A study of Mus musculus with 38 samples.

Results

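Repolarising potassium channel genes were followed as 9 named rows of the 29564 genes in the expression tables: Kcnd2, Kcnd3, Kcnip2, Kcna5, Kcnj2, Kcnj3, Kcnj11, Kcnq1 and Kcnh2. They were chosen by name, for the repolarising currents they encode, with earlier results of these data known. Polyadenylated RNA was sequenced from left ventricle of 38 wild-type C57BL6 mice, 1 library per mouse. The 4 groups were healthy hearts of mice given vehicle (non_failing, n = 8), hearts with heart failure with preserved ejection fraction given vehicle (HFpEF+Veh, n = 8), and HFpEF hearts given TYA-018, an inhibitor of the deacetylase HDAC6 (HFpEF+TYA-018, n = 11), or empagliflozin, an inhibitor of the glucose transporter SGLT2 (HFpEF+SGLT2i, n = 11). The 3 HFpEF groups shared a high-fat diet with L-NAME, a blocker of nitric oxide synthase. Diet and L-NAME came together in every HFpEF heart, so their parts cannot be told apart. The labels give no age. They call the mice female where the study's methods describe males, and treatment length also differs between the series title and the paper.

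After each beat, potassium leaving the cardiomyocyte returns the membrane to its resting voltage. In the mouse ventricle this is done mostly by fast transient outward and ultrarapid delayed rectifier currents, while the slower delayed rectifiers that dominate in larger mammals are small. Inward rectifiers hold the resting voltage, and lower expression of several of these channels is a known feature of remodelled hearts. The members are given by current: Kcnd2, Kcnd3 and their partner Kcnip2 for the fast transient outward current, Kcna5 for the ultrarapid current, Kcnj2, Kcnj3 and Kcnj11 for inward rectifiers, and Kcnq1 and Kcnh2 for the slow and rapid delayed rectifiers.

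The promoters of Kcnj2, Kcnh2 and Kcnip2 are shown because these genes had the smallest p-values in the comparisons of vehicle hearts. RefSeq windows on GRCm38.p6, from 250 bases before to 50 bases after the annotated start, were found for 7 of the 9 members, Kcnj11 and Kcnq1 being the others. Capitals mark letters searched on both strands, which are the E-box CACGTG (its own reverse complement) and the GC box GGGCGG or CCGCCC. The TATA box letters TATAAA or TTTATA were searched too and were in none of the 7 windows.
Kcnj2, chr11:111065914-111066213, plus strand: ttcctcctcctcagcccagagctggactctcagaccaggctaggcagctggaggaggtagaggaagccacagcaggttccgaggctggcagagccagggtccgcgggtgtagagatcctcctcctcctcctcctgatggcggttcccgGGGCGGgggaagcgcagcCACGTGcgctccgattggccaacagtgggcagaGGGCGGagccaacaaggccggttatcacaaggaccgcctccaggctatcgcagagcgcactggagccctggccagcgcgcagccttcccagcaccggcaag
Kcnh2, chr5:24329542-24329841, minus strand: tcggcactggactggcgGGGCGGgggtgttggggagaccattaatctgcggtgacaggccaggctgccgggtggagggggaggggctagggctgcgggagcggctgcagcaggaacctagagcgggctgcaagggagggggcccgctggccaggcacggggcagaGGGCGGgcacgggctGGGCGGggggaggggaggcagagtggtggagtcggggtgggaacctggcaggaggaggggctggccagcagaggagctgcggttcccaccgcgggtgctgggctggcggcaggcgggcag
Kcnip2, chr19:45816014-45816313, minus strand: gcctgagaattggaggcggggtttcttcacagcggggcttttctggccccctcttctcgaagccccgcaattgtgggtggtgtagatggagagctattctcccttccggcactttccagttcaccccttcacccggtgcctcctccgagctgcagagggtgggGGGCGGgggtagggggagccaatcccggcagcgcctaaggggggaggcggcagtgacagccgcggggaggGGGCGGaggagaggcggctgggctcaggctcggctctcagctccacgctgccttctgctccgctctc
The Kcnj2 window held 1 E-box, whose first letter lies at -84 from the start, and 2 GC boxes, at -102 and -51. The Kcnh2 window held 3 GC boxes and the Kcnip2 window 2. Kcnd2 and Kcnj3 held 1 GC box each, while the windows of Kcna5 and Kcnd3 held none of these letters. Among all 32851 RefSeq windows of this length, 7.15% held the E-box, 35.7% the GC box and 13.6% the TATA box. A match of letters is a description and not a site of binding.

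Members differ widely in gene structure. On GRCm38, Kcnj2 lies on chromosome 11 from 111066164 to 111076821 on the plus strand and has 1 annotated transcript of 2 exons in GENCODE M21. Kcna5, on chromosome 6 from 126532551 to 126535412 on the minus strand, is a gene of a single exon. Kcnd2, on the same chromosome from 21215503 to 21729805 on the plus strand, has 1 transcript of 6 exons. Kcnh2 lies on chromosome 5 from 24319589 to 24351604 on the minus strand with 5 transcripts, and the RefSeq window above starts inside this gene. Kcnip2 lies on chromosome 19 from 45791839 to 45816061 on the minus strand with 10 transcripts. Kcnd3 (chromosome 3, 105452330 to 105674002, plus strand), Kcnj3 (chromosome 2, 55435970 to 55598145, plus strand), Kcnq1 (chromosome 7, 143106362 to 143427042, plus strand) and Kcnh2 overlap antisense genes, none of which is a row of the tables. Kcnq1 overlaps 4 of them, among them Kcnq1ot1. Kcnj11 lies on chromosome 7 from 46093953 to 46100764 on the minus strand.

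Levels are TPM, the share of transcripts scaled within each library and corrected for gene length, which allows genes to be compared. The deposited values added up to between 950659 and 965392 per library. Over all 38 hearts Kcnip2 had the highest median level, 32.5 TPM, followed by Kcnh2 at 20.0 TPM. Kcnip2 was above Kcnh2 in 37 of 38 libraries, and Kcnh2 was above Kcnj3 in 38 of 38. Kcnj3 (median 9.22 TPM) and Kcna5 (median 9.02 TPM) had no common order, with Kcnj3 higher in 19 of 38 libraries. Kcnj3 was above Kcna5 in 2 of 8 non_failing, 2 of 8 HFpEF+Veh, 8 of 11 HFpEF+TYA-018 and 7 of 11 HFpEF+SGLT2i libraries, and this difference between groups was not tested. Below them came Kcnq1 (5.76 TPM), Kcnj2 (4.08 TPM), Kcnd3 (2.30 TPM) and Kcnd2 (1.30 TPM), each above the next in at least 33 of 38 libraries, and Kcna5 was above Kcnq1 in 32. Kcnj11 was listed at or near 0. Whether its reads were assigned elsewhere in the quantification was not tested, so the low value does not show that the gene is silent. It had a count in 4 of 8 non_failing, 3 of 8 HFpEF+Veh, 5 of 11 HFpEF+TYA-018 and 3 of 11 HFpEF+SGLT2i libraries, with at most 9.58 counts and 0.221 TPM, and it did not pass the filter on low counts. Counts and tests below therefore cover 8 of the 9 members.

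**Figure D1:**
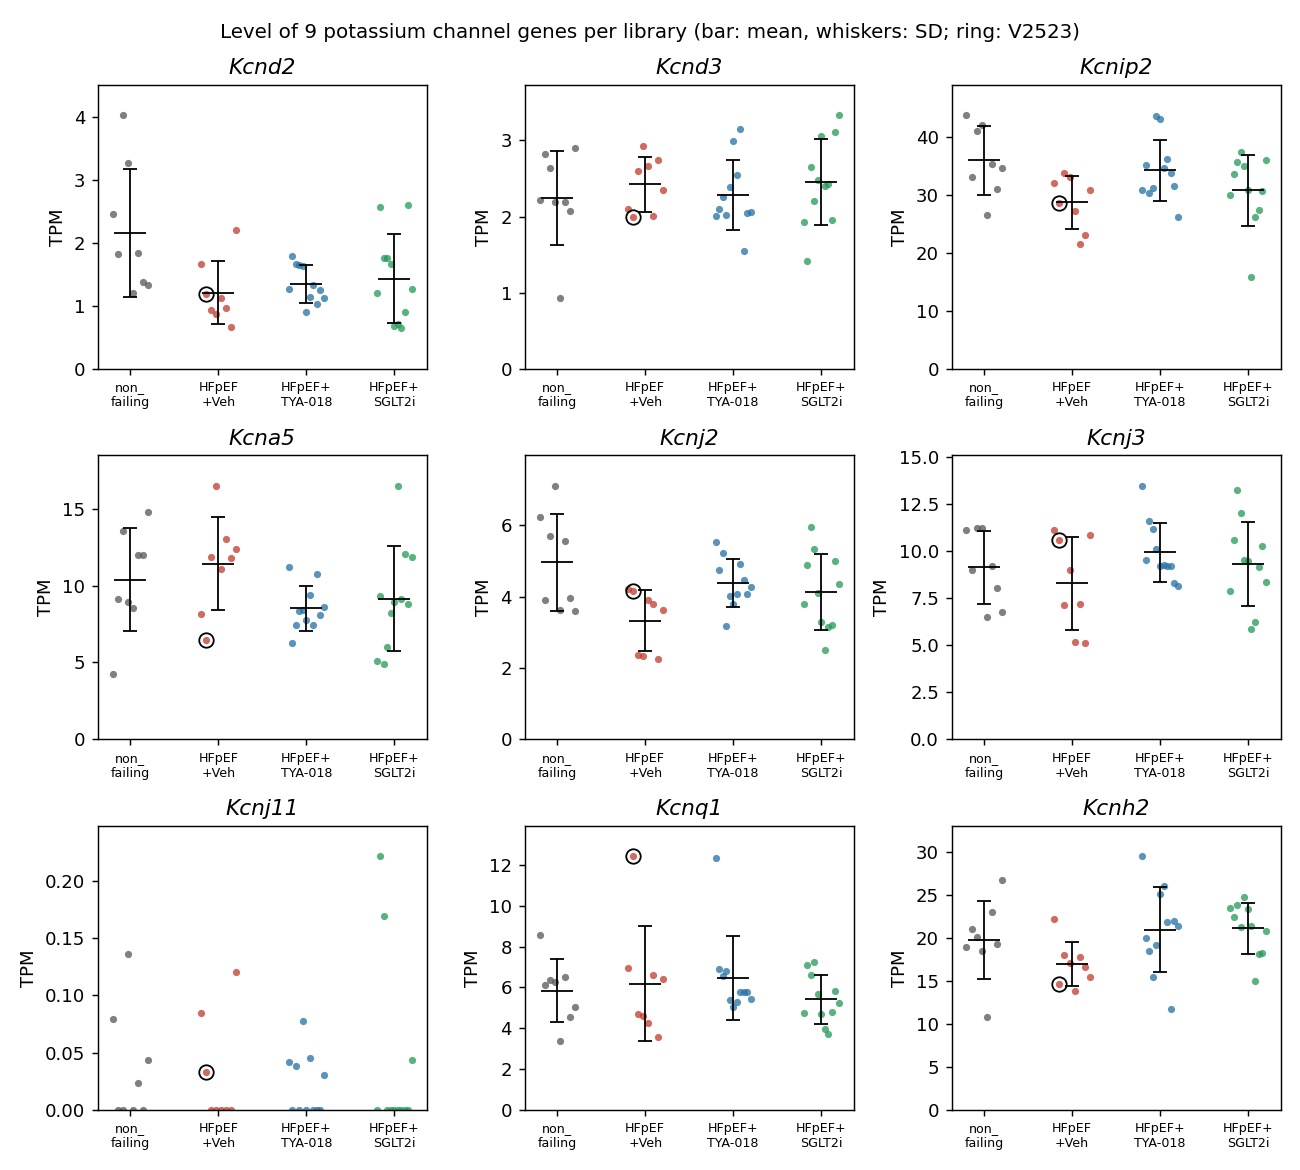
Level of the 9 channel genes in TPM (vertical axes, each from 0) in every library of the 4 groups (horizontal axes), with points for libraries, bars for means, whiskers for SD and a ring around V2523; Kcnj11 has points only. Kcnj2 sits lower in HFpEF+Veh (mean 3.33 TPM) than in non_failing (4.97 TPM), and V2523 is the highest Kcnq1 point of its group at 12.4 TPM.

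Some libraries bear on several members at once. V2523 of the vehicle group carried liver transcripts, with a summed level of 8 hepatocyte markers of 1347 TPM against at most 29.0 TPM in the other vehicle hearts, so values without it are given for the vehicle comparisons. This sum ran from 19.7 to 338 TPM in non_failing and stayed at or under 6.88 TPM in both drug groups. All 8 of these markers, Mup20, Serpina1c, Apoa1 and Ambp first by p, were called lower in both drug groups than in vehicle, and without V2523 3 were for TYA-018 and 0 for empagliflozin (edgeR). The non_failing hearts with the highest hepatocyte sums were V2504 (338 TPM), V2503 (173 TPM) and V2501 (154 TPM). The same hearts were together the highest of that group for Kcnj2, Kcnd2, Kcnip2 and Kcnj3, but not for Kcnd3, Kcna5, Kcnq1 or Kcnh2. The part of this in the comparisons with non_failing was not tested. Within the non_failing group, V2507 was the lowest library for 6 of the 8 tested members and also had the highest mitochondrial share of counts (37.8%) and the lowest summed cardiomyocyte markers (23695 TPM) of that group. V2543 was the highest HFpEF+TYA-018 library for 5 of 8. Libraries held 21451631 to 59280407 counts, with a median of 29527632, and no pair of libraries of 1 group agreed within counting noise.

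The comparison of HFpEF+Veh with non_failing hearts shows the members in the disease model. Kcnj2, which encodes Kir2.1, the main pore of the inward rectifier that holds the resting voltage, was lower in HFpEF+Veh, and it was the 1 member of 8 called at an adjusted p under 0.05. Over all genes tested the percentage called was 3.15, so a single call among 8 is a small count to read from. The median log2 fold change of the 8 members was -0.25, against 0.01 over all genes, with 6 members on the negative side and 4 at an unadjusted p under 0.05 (15.9% of all genes).

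Kcnj2 ranged from 3.61 to 7.11 TPM in non_failing hearts, with a median of 4.77 TPM. In HFpEF+Veh it ranged from 2.26 to 4.22 TPM with a median of 3.70 TPM. The 3 lowest vehicle hearts, V2530, V2527 and V2526, lay below every non_failing heart, and the other vehicle hearts overlapped the lower part of the non_failing range. The fitted log2 fold change was -0.63 (SE 0.16, 95% interval -0.95 to -0.31), or 0.644 of the non_failing level, with an edgeR adjusted p of 0.0176 and 8 of 8 vehicle hearts below the non_failing mean. Without V2523 it was -0.67 (adjusted p 0.0140). Of the 38 fits that each left out 1 library, 37 kept the call, and without V2504, the highest non_failing heart, the adjusted p was 0.0572. Such fits leave out 1 library at a time, so they cannot show what leaving out V2501, V2503 and V2504 together would give. Those hearts held 6.24, 5.71 and 7.11 TPM of Kcnj2, against 3.61 to 5.58 TPM in the other non_failing hearts. By limma on log2(TPM + 1) the log2 difference was -0.46 with an adjusted p of 0.05005, just above the threshold.

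The fast transient outward current gave lower values in vehicle hearts for 2 of its 3 genes, neither past the threshold. Kcnip2, which encodes KChIP2, the subunit that brings Kv4 channels to the membrane, ranged from 26.5 to 43.7 TPM in non_failing (median 35.0 TPM) and from 21.4 to 33.8 TPM in HFpEF+Veh (median 29.7 TPM). Its log2 fold change was -0.43 (SE 0.13), with 8 of 8 vehicle hearts below the non_failing mean and an edgeR adjusted p of 0.0654. DESeq2 called it, with an adjusted p of 0.0340, and so did edgeR without V2526 (adjusted p 0.0429) or without V2571 of the HFpEF+SGLT2i group (adjusted p 0.0186). Kcnd2, which encodes the pore Kv4.2, had the largest fitted difference. It ranged from 1.20 to 4.03 TPM in non_failing (median 1.83 TPM) and from 0.671 to 2.21 TPM in HFpEF+Veh (median 1.05 TPM). The log2 fold change was -0.90 (SE 0.28, 95% interval -1.48 to -0.32) with an edgeR adjusted p of 0.0752, and the DESeq2 adjusted p was 0.0386. Over the fits without 1 library the edgeR adjusted p ran from 0.0178, without V2532, to 0.209, without V2503. The spread of Kcnd2 within groups was wide, and its vehicle range overlapped the non_failing range through V2532 and V2521. Without V2523 the log2 fold changes of Kcnip2 and Kcnd2 were -0.43 and -0.87. Kcnd3, which encodes the pore Kv4.3, had means of 2.25 ± 0.617 TPM in non_failing and 2.42 ± 0.361 TPM in HFpEF+Veh (SD, n = 8 each). Its fitted log2 difference was 0.08 (95% interval -0.26 to 0.42).

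Kcnh2, which encodes ERG1, the pore of the rapid delayed rectifier, had a median of 19.6 TPM in non_failing (10.8 to 26.7 TPM) and of 16.9 TPM in HFpEF+Veh (13.9 to 22.2 TPM). The log2 fold change was -0.30 (SE 0.12) with an edgeR adjusted p of 0.188. V2507 was far below the other non_failing hearts, and without it the adjusted p was 0.0837. Kcnj3, which encodes GIRK1, a pore of the acetylcholine-activated current, gave -0.20 (95% interval -0.49 to 0.09). Kcna5, which encodes Kv1.5 of the ultrarapid current, gave 0.04 (95% interval -0.35 to 0.44), with means of 10.4 ± 3.37 TPM in non_failing and 11.4 ± 3.04 TPM in HFpEF+Veh (SD, n = 8 each). Kcnq1, the pore of the slow delayed rectifier, gave -0.03 (95% interval -0.43 to 0.36). In HFpEF+Veh its mean of 6.19 ± 2.80 TPM (SD, n = 8) became 5.29 ± 1.33 TPM without V2523 (n = 7), and the log2 fold change became -0.23 (adjusted p 0.501). The intervals of Kcna5, Kcnj3 and Kcnq1 hold falls of the size of the Kcnh2 value, so falls of that size in them are not excluded by these intervals. Without V2523 the log2 values were -0.27 for Kcnh2, -0.23 for Kcnj3, 0.13 for Kcna5 and 0.13 for Kcnd3.

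**Figure D2:**
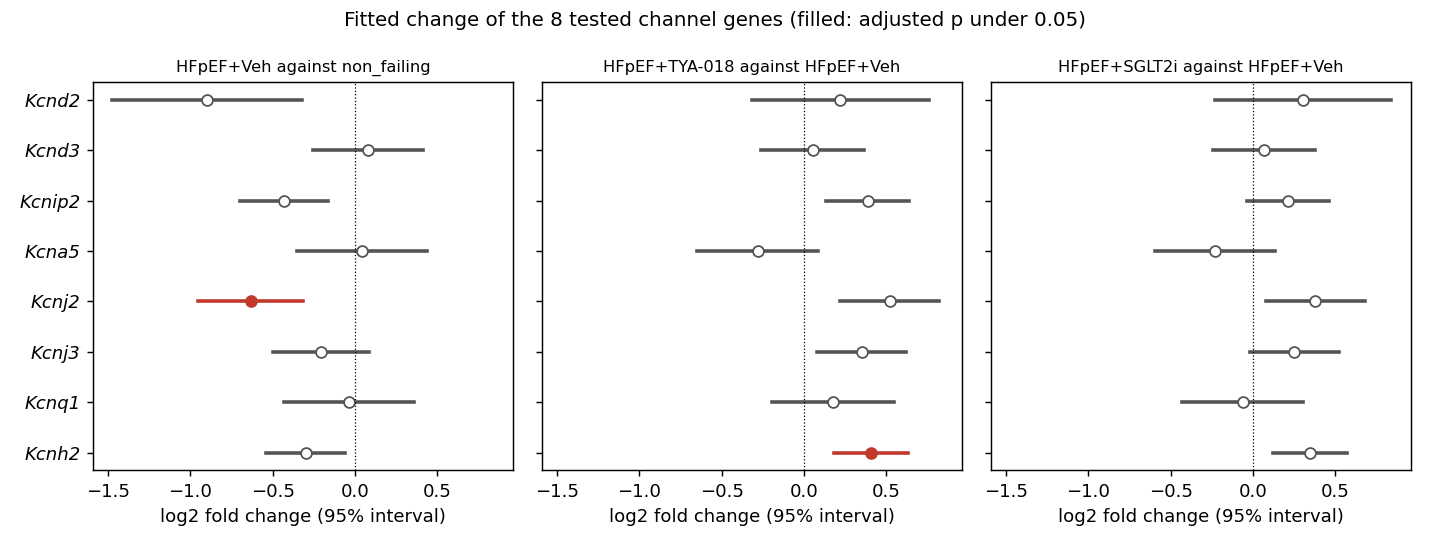
Fitted log2 fold change (horizontal axis) of the 8 tested channel genes in 3 comparisons, with 95% intervals from edgeR as lines and filled points for an adjusted p under 0.05. Kcnj2 is filled in HFpEF+Veh against non_failing (-0.63) and Kcnh2 in HFpEF+TYA-018 against HFpEF+Veh (0.41), and no point is filled for HFpEF+SGLT2i.

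Markers of cell types moved in the same comparison. Of 10 cardiomyocyte markers 4 fell in HFpEF+Veh, namely the contractile genes Myl3 (-0.41), Tnnt2 (-0.43), Myl2 (-0.37) and Tnni3 (-0.34), with a list median of -0.31 on the log2 scale. The summed level of the list ran from 23695 to 33190 TPM in non_failing (median 30028 TPM) and from 22825 to 26244 TPM in HFpEF+Veh (median 24847 TPM). Of 6 fibroblast markers 3 rose: the matrix genes Postn (1.03) and Lum (0.86) and the growth factor receptor Pdgfra (0.33). Their sum went from 162 to 276 TPM in non_failing and from 248 to 609 TPM in HFpEF+Veh. These calls held without V2523. Among 7 smooth muscle and pericyte markers the pericyte gene Rgs5 fell (-0.36), while the other 6 had positive values and the list median was 0.13. Of these Acta2, smooth muscle actin, was at 0.71 (adjusted p 0.0770) and was called without V2523 (0.77, adjusted p 0.0467). The 8 hepatocyte markers were not called with all libraries (1 at an unadjusted p under 0.05, DESeq2 1 lower), and without V2523 all 8 were called lower in HFpEF+Veh, with a median of -3.64. None of 6 endothelial or 5 macrophage markers in the table was called (0 and 1 at an unadjusted p under 0.05), and of 5 tested conduction system markers 0 were called, with 1 at an unadjusted p under 0.05. In bulk tissue fewer cells of a type and less RNA per cell cannot be told apart, and the part of these shifts in the channel values was not tested.

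The left ventricular label was checked against atrial and pacemaker genes, since Kcnj3 and Kcna5 are also atrial genes. The summed level of 8 atrial markers was 74.0 to 321 TPM in non_failing, 65.2 to 229 TPM in HFpEF+Veh, 62.3 to 217 TPM in HFpEF+TYA-018 and 34.8 to 185 TPM in HFpEF+SGLT2i, and the atrial gene Bmp10 had a highest value of 0.258 TPM over all libraries. The atrial markers Dkk3 (1.44) and Bmp10 (2.38) rose in HFpEF+Veh on the log2 scale, and Bmp10 was not called without V2523 (1.95, adjusted p 0.0644). Against non_failing, Bmp10 was called higher in HFpEF+TYA-018 (2.69) and HFpEF+SGLT2i (3.39), and without V2523 as well. The list was split, with 4 members positive and 3 negative. Myl7, the atrial myosin light chain, was at -2.46 (adjusted p 0.0840) and Sbk2 at -0.66 (adjusted p 0.131), each with 8 of 8 vehicle hearts below the non_failing mean, and DESeq2 called 2 of the list higher and 1 lower. Sln, an atrial marker, did not pass the filter.

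The second question was whether the members differed between treated and vehicle hearts. Kcnh2 stood higher under TYA-018 than under vehicle and was the 1 of 8 members called, against 1.93% of all genes. The median log2 fold change of the members was 0.29, against -0.01 over all genes, and 7 of 8 were positive. Cell type markers leaned to one side without a call. Of the cardiomyocyte markers 8 of 10 were positive, with a median of 0.14 and 4 at an unadjusted p under 0.05. The fibroblast and endothelial markers were negative in 6 of 6 each, with 2 at an unadjusted p under 0.05 in each. Over all genes 17.5% were at an unadjusted p under 0.05. DESeq2 called 0 in each list, and the part of these shifts in the channel values was not tested. Scaling by library size alone moved the median of all genes to -0.14 in this comparison. Under that scaling the values of Kcnh2 and Kcnj2 were 0.29 and 0.39, and neither was called. The scaling moves all genes of a library alike, so it cannot test their distance from the median of all genes.

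Kcnh2 in HFpEF+TYA-018 ranged from 11.8 to 29.5 TPM with a median of 21.3 TPM, and in HFpEF+Veh from 13.9 to 22.2 TPM with a median of 16.9 TPM. The groups overlapped, V2555 being the lowest heart of both. The log2 fold change was 0.41 (SE 0.11, 95% interval 0.19 to 0.64), or 1.33 times the vehicle level, with an edgeR adjusted p of 0.0420 and 10 of 11 treated hearts above the vehicle mean. Without V2523 the value was 0.39 and the adjusted p 0.0689, and 23 of 38 leave-one-out fits kept the call, with adjusted p-values from 0.00514 to 0.0794. The libraries whose absence ended it were the vehicle hearts V2523, V2527, V2528, V2529, V2530 and V2532, the TYA-018 hearts V2543, V2546, V2547, V2549, V2550, V2551, V2552 and V2559, and V2564 of the HFpEF+SGLT2i group. By limma on log2(TPM + 1) the difference was 0.27 with an adjusted p of 0.216.

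Kcnj2 was next, at 3.17 to 5.52 TPM in HFpEF+TYA-018 (median 4.27 TPM) against 2.26 to 4.22 TPM in HFpEF+Veh (median 3.70 TPM). Its log2 fold change was 0.52 (SE 0.15), with 10 of 11 treated hearts above the vehicle mean and an edgeR adjusted p of 0.0530. DESeq2 gave 0.0284. edgeR called it in 8 leave-one-out fits, those without V2504, V2510, V2521, V2528, V2548, V2563, V2570 or V2571, and its adjusted p ran from 0.0343 to 0.128. Without V2523 it was 0.56 (adjusted p 0.0571). Kcnip2 gave 0.39 (SE 0.12, adjusted p 0.0874, called without V2570 or V2571) with a range of 26.1 to 43.5 TPM (median 33.7 TPM) in the treated hearts, and Kcnj3 gave 0.35 (SE 0.13, adjusted p 0.152) with 11 of 11 treated hearts above the vehicle mean. The comparison shares its vehicle hearts with the comparison of HFpEF+Veh and non_failing, so a low vehicle value enters both. Set beside the non_failing hearts directly, Kcnj2 in HFpEF+TYA-018 differed by -0.11 (95% interval -0.41 to 0.18), Kcnip2 by -0.04 (-0.29 to 0.21) and Kcnh2 by 0.11 (-0.11 to 0.34). Kcnd2 differed by -0.68 (-1.20 to -0.15; edgeR adjusted p 0.105), with 11 of 11 treated hearts below the non_failing mean.

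The intervals of the other 4 members included 0. Kcnd2 gave 0.22 (-0.32 to 0.76), Kcnd3 0.05 (-0.26 to 0.37) and Kcna5 -0.28 (-0.65 to 0.09). Kcnq1 gave 0.18 (-0.19 to 0.55), and V2543 held 12.4 TPM of Kcnq1 against at most 6.88 TPM in the other TYA-018 hearts. Without V2523 the value of Kcnq1 was 0.38 (adjusted p 0.213), and without V2543 it was 0.04. Without V2523 Kcna5 was at -0.36, Kcnd2 at 0.20 and Kcnd3 at 0.0085, while Kcnip2 stayed at 0.39 and Kcnj3 was at 0.39.

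**Figure D3:**
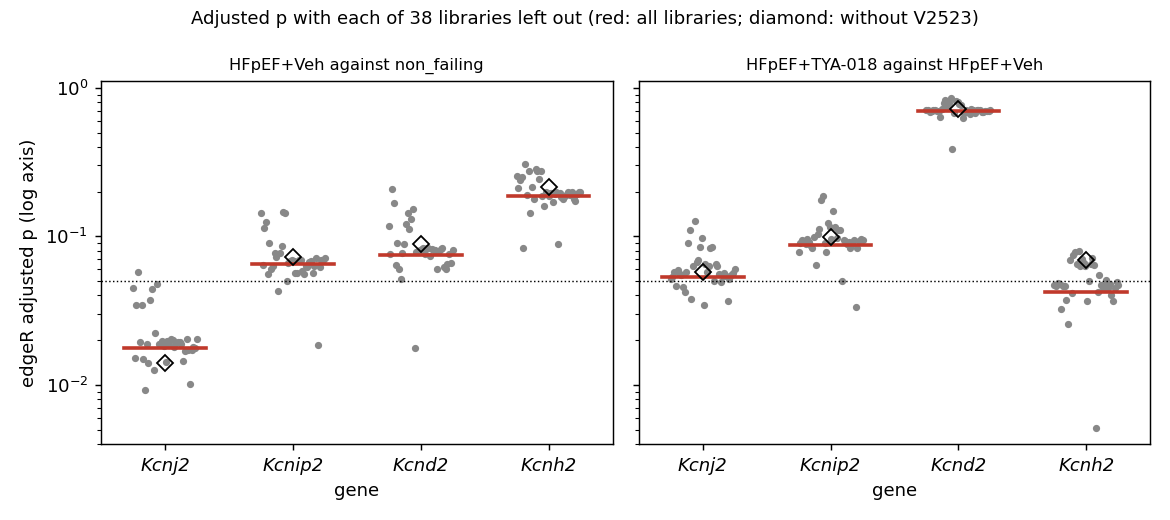
edgeR adjusted p (vertical log axis) of Kcnj2, Kcnip2, Kcnd2 and Kcnh2 in 2 comparisons, with a grey point for each fit that left out 1 of the 38 libraries, a red bar for all libraries, a diamond for the fit without V2523 and a dotted line at 0.05. Kcnj2 stays under the line in 37 of 38 fits against non_failing, while Kcnh2 under TYA-018 crosses it in 15.

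Under empagliflozin no member was called, against 0.85% of all genes. That share was not stable, since 117 genes were called with all libraries, 2 without V2523 and 3 with only the 2 groups compared. edgeR gave 2 of 8 at an unadjusted p under 0.05 (10% of all genes), and DESeq2 and limma called 0. Those 2 were Kcnh2, at 14.9 to 24.7 TPM (median 21.3 TPM) with a log2 fold change of 0.35 against vehicle (SE 0.11, adjusted p 0.156), and Kcnj2, at 2.51 to 5.95 TPM (median 4.10 TPM) with 0.38 (SE 0.15, adjusted p 0.300). Of the 11 treated hearts, 10 lay above the vehicle mean for Kcnh2 and 9 for Kcnj2. The values without V2523 were 0.33 and 0.41. Kcnj3 gave 0.25 (95% interval -0.02 to 0.53), Kcnip2 0.22 (-0.03 to 0.47), Kcnd2 0.31 (-0.23 to 0.85), Kcnd3 0.07 (-0.24 to 0.38), Kcna5 -0.23 (-0.60 to 0.14) and Kcnq1 -0.06 (-0.43 to 0.31). The median over the 8 members was 0.24, with 6 positive. Without V2523 Kcnq1 changed sign to 0.14, Kcna5 was at -0.32 and Kcnd3 at 0.018, while Kcnj3 was at 0.28, Kcnip2 at 0.21 and Kcnd2 at 0.28. In this comparison 5 of 6 fibroblast markers were negative (4 at an unadjusted p under 0.05; median -0.30) and 8 of 10 cardiomyocyte markers positive (0 at an unadjusted p under 0.05; median 0.07), with 0 called in either list by edgeR or DESeq2. Their part in the channel values was not tested. V2571 had the lowest Kcnip2 (15.8 TPM), Kcnj2 and Kcnj3 of this group and the highest Kcna5 (16.5 TPM), together with a mitochondrial share of 39.0% and the lowest summed cardiomyocyte markers of all libraries (17957 TPM).

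Between the drugs themselves no member was called, and the percentage of all genes called was 0 (edgeR; 1821 genes at an unadjusted p under 0.05, none of them a member). DESeq2 called 187 genes and limma 0, neither with a member. The intervals of HFpEF+TYA-018 minus HFpEF+SGLT2i were -0.14 to 0.26 for Kcnh2, -0.13 to 0.41 for Kcnj2, -0.06 to 0.40 for Kcnip2 and -0.10 to 0.58 for Kcnq1, on the log2 scale. They do not show that the drugs act alike. Against non_failing hearts 0 members were called in HFpEF+TYA-018 (7.39% of all genes) and 0 in HFpEF+SGLT2i (6.45%), with 1 member in each, Kcnd2, at an unadjusted p under 0.05 (22% and 19.6% of all genes). In HFpEF+SGLT2i, Kcnd2 was at 0.646 to 2.61 TPM and differed from non_failing by -0.59 (SE 0.26, adjusted p 0.187). DESeq2 and limma called 0 members in either comparison.

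The effective length of a gene, the mean length of its transcripts weighted by their use and less the part where fragments cannot start, was read as a second measure of the members. It was tested with limma on log2 length. Between HFpEF+TYA-018 and HFpEF+SGLT2i, 2 of 8 members were called, Kcnj3 at 2580 ± 109 against 2759 ± 123 bases and Kcnj2 at 3339 ± 71.7 against 3473 ± 92.7 bases (SD, n = 11 each; adjusted p 0.0423 for both). Over all genes 10.5% were called in this comparison, 1448 shorter in HFpEF+TYA-018 and 3 longer, and the median of all genes was -0.07 against -0.10 for Kcnj3 and -0.06 for Kcnj2. Kcnj2 has 1 annotated transcript in GENCODE M21. Kcna5, with 1 transcript of 1 exon, had lengths from 2230 (V2550) to 2891 bases (V2562). A called length therefore does not by itself show a changed mix of transcripts. In the other 5 comparisons limma called no gene's length, with 167 to 1432 genes at an unadjusted p under 0.05.

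The members were not independent of one another. The measure was log2 CPM, the counts scaled to library size with TMM factors, after each group's mean was taken away. In it Kcnj3 and Kcnq1 had a Pearson r of 0.73 over 38 libraries, Kcnd2 and Kcnj3 0.70, and Kcnd2 and Kcnj2 0.68. Kcna5 ran the other way, with -0.55 for Kcnj2 and -0.49 for both Kcnip2 and Kcnq1. Kcnd2 and Kcnd3, which encode pores of the same current, had an r of -0.19. All members were read from the same libraries, so differences between libraries enter every pair. No measure of RNA quality was read. Kcnj3 had an r of -0.72 with the mitochondrial share of counts and 0.66 with the summed cardiomyocyte markers, Kcnq1 -0.65 and 0.48, Kcnd2 -0.47 and 0.43, Kcnip2 -0.34 and 0.62, and Kcnj2 -0.32 and 0.32. Kcna5 had 0.23 and -0.43, Kcnh2 -0.26 and 0.25, and Kcnd3 0.15 and 0.17. With the log2 library total r ran from -0.40 for Kcnd3 to 0.49 for Kcnj3, and it was 0.29 for Kcnj2 and 0.02 for Kcnh2. The mitochondrial share had medians of 32.2% in non_failing, 30.5% in HFpEF+Veh, 33.5% in HFpEF+TYA-018 and 31.7% in HFpEF+SGLT2i. With this share as a covariate, chosen after seeing the data, Kcnd2, Kcnip2 and Kcnj2 were called lower in HFpEF+Veh, and Kcnip2, Kcnj2, Kcnj3 and Kcnh2 were called higher under TYA-018 than under vehicle. This fit called more of all genes too, 934 and 1570 in these comparisons against 433 and 266 without the covariate.

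**Figure D4:**
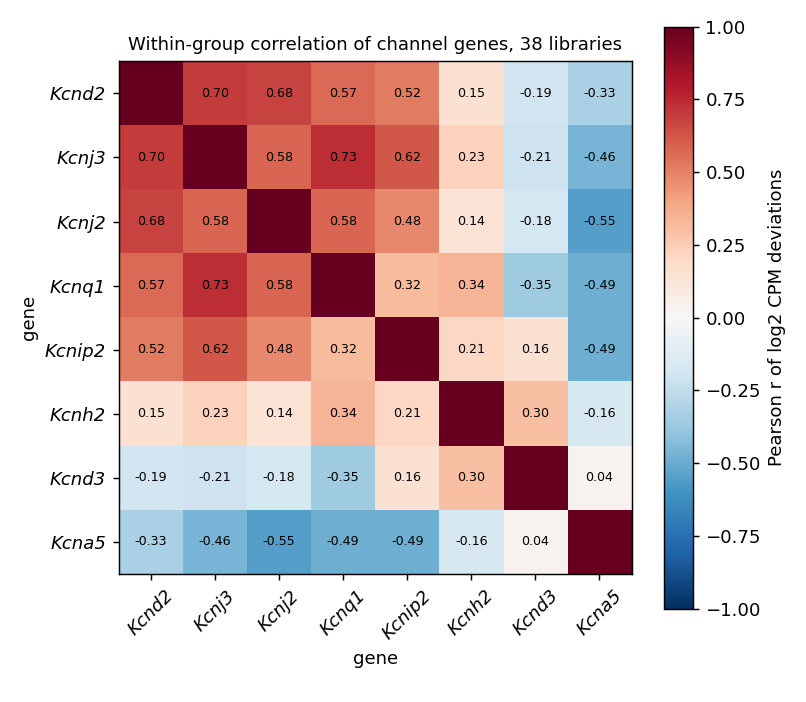
Pearson r (colour and printed number) between the 8 tested channel genes (both axes), from log2 CPM after taking away the group means, over 38 libraries. Kcnd2, Kcnj3, Kcnj2, Kcnq1 and Kcnip2 form a block of positive values up to 0.73, and Kcna5 is negative with each of them.

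The genes most like Kcnj2 in this measure were Dcun1d1 (r 0.82), the beta-1 adrenergic receptor gene Adrb1 (0.80) and Yae1d1 (0.79). For Kcnh2, Lrp4 (0.84) and Pacs1 (0.75) came first. The measure is Pearson's r over 38 libraries with group means removed.

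Other potassium channel genes were read from lists made with earlier results of these data known. Of 26 other pore subunits 25 were tested, and 2 rose in HFpEF+Veh against non_failing, both at low levels: Kcnc4, from 0.0860 ± 0.0460 to 0.220 ± 0.0878 TPM (log2 fold change 1.25, adjusted p 0.0209), and Kcnn3, a small-conductance calcium-activated channel, from 0.153 ± 0.0394 to 0.261 ± 0.0775 TPM (0.69, adjusted p 0.0426; SD, n = 8 each). Both were called without V2523 as well. With all libraries 3.15% of all genes were called in this comparison. The list median was 0.13, and without V2523 it was -0.06. None was called in either drug group against vehicle by edgeR or DESeq2. At an unadjusted p under 0.05 were 5 for TYA-018 and 3 for empagliflozin (edgeR), against 17.5% and 10% of all genes.

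Of 23 accessory subunits and partners 18 were tested. Abcc9, which encodes SUR2, the sulfonylurea receptor of cardiac ATP-sensitive channels and thus the partner of Kcnj11 or Kcnj8, fell in HFpEF+Veh from 19.3 ± 2.67 to 14.8 ± 3.40 TPM (log2 fold change -0.46, SE 0.12, edgeR adjusted p 0.0251; SD, n = 8 each), and without V2523 it was -0.47. Kcnj8, the other pore of these channels, was measured at 9.76 ± 1.18 TPM in non_failing and 9.16 ± 1.69 TPM in HFpEF+Veh. Kcne3, a beta subunit of KCNQ1 known from epithelia, was called higher in HFpEF+Veh (2.25) and lower in HFpEF+SGLT2i against vehicle (-2.05), but both rest on V2523, which held 9.92 TPM against at most 0.880 TPM in the other vehicle hearts. Without it the values were 0.60 (adjusted p 0.439) and -0.40 (adjusted p 0.712). V2523 was also the vehicle heart with the highest Kcnq1. Under TYA-018 0 of the 18 were called by edgeR, with 3 at an unadjusted p under 0.05 (17.5% of all genes). DESeq2 called 1.

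Among 13 transcriptional regulators linked to these channels, 0 were called in HFpEF+Veh by edgeR or DESeq2. At an unadjusted p under 0.05 were 2 (edgeR), against 15.9% of all genes. Tbx5, a T-box factor of the conduction system and ventricle, rose in both drug groups, from 2.18 ± 0.518 TPM in HFpEF+Veh (n = 8) to 2.99 ± 0.309 TPM in HFpEF+TYA-018 (n = 11; log2 fold change 0.56, edgeR adjusted p 0.0204) and 3.19 ± 0.840 TPM in HFpEF+SGLT2i (n = 11; 0.64, adjusted p 0.00612; SD). Without V2523 it was 0.58 (adjusted p 0.0347) and 0.66 (adjusted p 0.0721). Both comparisons share the vehicle hearts, in which Tbx5 was at -0.44 against non_failing (2.81 ± 0.684 TPM; SD, n = 8), with 8 of 8 below the non_failing mean and an edgeR adjusted p of 0.0808. Klf15, known as a regulator of Kcnip2, was at 6.98 ± 2.43 TPM in non_failing and 5.15 ± 2.49 TPM in HFpEF+Veh (-0.54, adjusted p 0.377; SD, n = 8 each). Of 16 clock genes 0 were called in HFpEF+Veh or in either drug group against vehicle by edgeR or DESeq2. At an unadjusted p under 0.05 were 2, 3 and 0 of them (edgeR). Against non_failing, edgeR called 1 lower in HFpEF+TYA-018 and 1 lower in HFpEF+SGLT2i, each also without V2523. In these 2 comparisons 7 and 4 were at an unadjusted p under 0.05, against 22% and 19.6% of all genes.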

How the data were processed

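Polyadenylated RNA of left ventricle was sequenced with a stranded kit, 1 library per mouse, and groups and mouse numbers were taken from the sample titles. According to the methods, the authors trimmed reads with fastp, quantified GRCm38 transcripts with Salmon 1.6.0 and used tximport for gene values. The expected counts they deposited are estimated reads per gene, not normalised. The deposited TPM values were scaled by the authors within each library, and the deposited effective lengths are in bases. Unmapped columns numbered 0.

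Expected counts were rounded and genes kept with filterByExpr, which left 13765 of 29564. The quasi-likelihood test of edgeR 4.0.16 (R 4.3.3) was fitted with TMM factors in 1 model of the 4 groups for 6 comparisons, two-sided, with Benjamini-Hochberg adjustment over all genes and calls at an adjusted p under 0.05. SE is the log2 fold change over the root of F. Numbers of hearts in a direction count those of the first group on that side of the mean CPM of the second. limma 3.58.1 tested log2 length and, as an alternative, log2(TPM + 1) and log2(TPM + 0.1) of the deposited values, where the study used the former transform after a gene filter, removal of mitochondrial genes and rescaling that were not repeated here; DESeq2 1.42.0 and other fits were further alternatives. The fits were also run on simulated data, whose results are not reported here. The pairs of libraries compared within groups numbered 166, with a lowest chi-square per degree of freedom of 17.0. In the reported fit each p-value sets a group difference against the spread between mice within groups, estimated per gene over all 4 groups.

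The members, gene lists and tests were chosen with earlier results of these data known. Named genes were all members, up to 4 called genes per other list in HFpEF+Veh against non_failing or a drug against vehicle by smallest p, and the 3 nearest patterns of the 2 members with the smallest adjusted p, of which 1 is not reported here. Kcnj8, Klf15, Acta2, Myl7, Sbk2, Nppa, Stard10 and the libraries V2501, V2503, V2504, V2507, V2543 and V2571 were singled out after their values were seen. Sln is named as the untested atrial marker. Labels and methods differ on sex, read type, treatment length and genome build (the labels name the human build hg38, while the genes in the tables are mouse genes), and none of these entered a test.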

Additional observations from a re-analysis of the deposited data

Results flagged for a closer look

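Of 18 sets of 8 hearts examined (9 members in non_failing and HFpEF+Veh), 2 held a heart set apart from the others, where chance gives about 1 in 20. Kcnq1 in HFpEF+Veh V2523 was at 12.4 TPM, above 3.59 to 6.96 TPM in the other vehicle hearts, a gap of 0.619 of the range. Kcnd3 in non_failing V2507 was at 0.936 TPM, below 2.07 to 2.90 TPM in the others, a gap of 0.577 of the range. Both gaps pass Dixon's critical value for 8 samples at the 95% level. Groups of 11 were not examined in this way.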

How the results depend on the processing

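No paired analysis was possible because mouse numbers differ in every group. The members called in HFpEF+Veh against non_failing were 1 in the reported fit, 0 by limma with either pseudocount, 3 by DESeq2 and with the library total or the mitochondrial share as a covariate (both added after seeing the data), and 0 to 2 over fits without 1 library. In HFpEF+TYA-018 against HFpEF+Veh they were 1 in the reported fit, 0 by library size alone, with a length offset, by limma or with only the 2 groups compared, 2 without the filter, by DESeq2 and with the library total, 4 with the mitochondrial share, and 0 to 3 over fits without 1 library. In HFpEF+TYA-018 against non_failing 1, Kcnd2, was called with only the 2 groups compared (adjusted p 0.0399). The cause of these differences was not tested. Over all genes, the fits other than those without 1 library called 344 to 934, 58 to 1570 and 0 to 457 genes in the first 3 comparisons. The values 344 and 58 came from the fits of only the 2 groups compared. Members near 0 changed sign. On the log2 scale Kcnq1 in HFpEF+Veh against non_failing was 0.040 by library size alone and 0.026 and 0.025 by limma with pseudocounts of 1 and 0.1, and Kcnd3 in HFpEF+TYA-018 against HFpEF+Veh was -0.069, -0.066 and -0.094. In HFpEF+SGLT2i against HFpEF+Veh, Kcnd3 was -0.000115 by library size alone and -0.0061 by limma with 0.1, and Kcnq1 was 0.091 with the mitochondrial share. Between the drugs Kcnd2 was 0.033 by limma with 0.1, 0.011 with the library total and 0.0083 with the mitochondrial share, and Kcnh2 was -0.035 and -0.037 by limma. Without 1 library, ranges that crossed 0 against non_failing were -0.022 to 0.14 for Kcnd3, -0.070 to 0.13 for Kcna5 and -0.23 to 0.064 for Kcnq1 in HFpEF+Veh, -0.089 to 0.0070 for Kcnip2 in HFpEF+TYA-018, and -0.0066 to 0.10 for Kcnj3, -0.17 to 0.0059 for Kcnq1 and -0.018 to 0.10 for Kcnh2 in HFpEF+SGLT2i. Against vehicle they were -0.025 to 0.10 for Kcnd3 under TYA-018 and -0.14 to 0.14 for Kcnq1 under empagliflozin, and between the drugs -0.17 to 0.049 for Kcnd2, -0.089 to 0.031 for Kcnd3 and -0.12 to 0.062 for Kcna5. Counts of members with a changed length were the same under both alternatives tried. Kcnj11 was too low to test.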
